A study of Mus musculus with 37 samples.

Results

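The genes described here are 8 genes of the loop of Henle and the distal tubule, taken by name: Slc12a1, Umod, Kcnj1, Bsnd, Slc12a3, Wnk4, Kcnj5 and Pou3f3. They were read across 9 components of the embryonic mouse kidney, on arrays with 45101 probe sets (groups of short probes that read 1 transcript). Of the 8 genes, 7 had a probe set that passed a filter on low signal and were tested among 15709 genes. Slc12a3 did not pass and is given as levels. The study asked which genes are active in each component of the developing kidney. It used wild-type CD-1 mice, an outbred strain, whose sex the labels give as unknown. At embryonic day E11.5 there were 4 arrays of the ureteric bud and 8 of the metanephric mesenchyme. The renal vesicle gave 5 arrays at E12.5. The E15.5 kidney supplied the S-shaped body (4 arrays), renal corpuscle (4), proximal tubule (2), medullary collecting duct (3), ureteric tip (3) and medullary interstitium (4). The protocol describes laser capture, with about 50 sections of 5 kidneys combined into 1 sample, and 2 rounds of RNA amplification. The titles of all 4 bud arrays and of mesenchyme replicates 5 to 8 name a dissection or collagenase instead, while 3 mesenchyme titles name laser capture. Which animals entered a pool is not stated, and 1 animal could supply several components, so p-values measure the spread between pooled samples only.

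The nephron forms from mesenchyme through the renal vesicle and the S-shaped body, whose segments foreshadow the corpuscle, the proximal tubule and the loop with the distal tubule. In the adult, the thick ascending limb reclaims salt through the cotransporter NKCC2, encoded by Slc12a1. Potassium returns to the lumen through the channel ROMK (Kcnj1), and chloride leaves through channels that need the subunit barttin (Bsnd). The same cells secrete uromodulin (Umod). The distal convoluted tubule uses the thiazide-sensitive cotransporter NCC (Slc12a3), which the WNK kinases regulate, among them Wnk4. Kcnj5 encodes a G protein gated potassium channel subunit. Pou3f3, also called Brn1, encodes a POU-domain transcription factor needed in the mouse for the loop and the distal tubule.

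Levels are given as log2 normalized signal, and are compared between arrays for 1 probe set, never between genes. A gene was called in a comparison at an adjusted p under 0.05 (limma, Benjamini-Hochberg over all genes) together with a log2 difference of 1 or more in either direction, and only called genes are said to have risen or fallen. As the median over all arrays was 7.89, readings below it are treated as low. Deposited array medians ranged from 127 to 334, and 29 of 37 arrays correlated best with an array of their own component. The marker lists followed the labels in most arrays. The mean of 11 proximal tubule markers was 12.76 to 14.02 in the proximal tubule and at most 11.84 elsewhere. The mean of 9 ureteric markers was at least 11.18 in the bud, the tip and the collecting duct, but it also reached 11.25 in 1 interstitial array. Some libraries carried markers of other components. S-shaped body replicate 3 had a podocyte mean (6 markers) of 14.45, against 11.30 to 11.95 in the other S-shaped arrays, and an interstitial mean (8 markers) of 13.27 against 10.18 to 10.65. Its renal vesicle mean (8 markers) was 9.68, against 12.45 to 13.02, and it correlated best with corpuscle replicate 1. Renal corpuscle replicate 4 had a podocyte mean of 11.42, against 13.90 to 14.96 in the other corpuscle arrays, and a renal vesicle mean of 12.96 against 9.55 to 10.34. That library correlated best with S-shaped replicate 2. In the podocyte and renal vesicle means, each of these libraries lay within the range of the other's component. Why was not tested. Results that rest on these libraries are given with and without both, and they are the libraries meant where some are said to stand apart. Corpuscle replicate 2 had a high nephron progenitor mean (6 markers), above the 7.68 to 8.24 of the other corpuscle arrays, and correlated best with an interstitial array. Proximal tubule replicate 2 had a nephron progenitor mean of 10.56, against 8.86 in replicate 1, and correlated best with a tip array, while replicate 1 had a macrophage mean (5 markers) of 11.39, against 7.72 in replicate 2.

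Slc12a1, Umod and Kcnj1 were low in every array of E11.5 and E12.5 and were read above the median only at E15.5, in some arrays of nearly every component. None of them was called in any of the 8 comparisons with all arrays. The Actb control ratio (log2 of 5′ over 3′ probes, a measure of RNA integrity) also split by day. It was -5.16 to -3.45 at E11.5 and E12.5. At E15.5 it was -3.07 to -1.35, except in the proximal tubule (-4.59 and -3.43). Deposited array medians were 127 to 197 at the earlier days and 167 to 334 at E15.5. The part of either in these levels was not tested beyond a fit with the Actb ratio as a covariate. Slc12a1 (chr2:125152510-125230002, GRCm38.p6, probe set 1424260_at) had log2 levels of 11.09, 8.70, 14.61 and 5.52 in S-shaped body replicates 1 to 4, against 5.92, 6.24, 7.68, 6.59 and 6.26 in the renal vesicle. Of the S-shaped arrays 3 lay above all vesicle arrays and replicate 4 lay below them, so the groups overlapped. The mesenchyme is of E11.5, the vesicle of E12.5 and the S-shaped body of E15.5. For every gene, comparisons between these components therefore cannot tell component and day apart. S-shaped replicates 1, 3 and 4 also share a title date that no other component has. For them component and title date cannot be told apart in any comparison. The Slc12a1 difference was 3.44 on the log2 scale (SE 1.12, adjusted p = 0.0645 by limma). It was 4.93 (adjusted p = 0.00496) without S-shaped replicate 4 and 1.90 (adjusted p = 0.41) without replicate 3, so that single libraries decided the call. The proximal tubule differed from the S-shaped body by -2.61 (adjusted p = 0.265), and Slc12a1 was called lower there without S-shaped replicate 4. Elsewhere at E15.5 the gene reached 9.92, 8.88, 11.41 and 5.96 in the renal corpuscle and 8.18, 9.53, 12.55 and 8.63 in the medullary interstitium. The collecting duct gave 8.88, 7.36 and 8.12, the tip 11.15, 6.83 and 6.53, and the proximal tubule 6.69 and 8.05. Slc12a1 was therefore above the median in all 4 interstitial arrays and in 3 of 4 corpuscle arrays, and no component was uniformly high. The order of component means ran from S-shaped body (9.98) and interstitium (9.72) to the renal vesicle (6.54), and no step between neighbours in that order was called for any of the 7 genes tested. A second Slc12a1 probe set, 1421390_at, was above the median in 0 arrays and reached at most 7.77, so the finding rests on 1424260_at.

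Umod (chr7:119462708-119479262, probe set 1456306_a_at) followed a similar course. Its levels were 7.49, 8.05, 11.60 and 10.86 in the S-shaped body, against 6.29, 6.30, 7.74, 6.68 and 5.85 in the renal vesicle. All S-shaped arrays but replicate 1 lay above every vesicle array. The difference of 2.93 (SE 1.02, adjusted p = 0.0896) did not pass the test, and it was 2.23 without S-shaped replicate 3. The proximal tubule had the highest component mean, with arrays at 11.38 and 9.39. In the corpuscle, replicate 3 stood at 11.86 and the other arrays at 6.77, 6.24 and 5.86. The remaining E15.5 arrays read 9.66, 9.06 and 7.01 in the collecting duct, 10.51, 5.94 and 5.84 in the tip, and 5.66, 8.27, 11.20 and 9.64 in the interstitium. Umod was thus above the median in at least 1 array of each E15.5 component, and both proximal tubule arrays were above it. The second probe set, 1426252_a_at, was above the median in 9 arrays, all of E15.5, against 12 for the first.

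Kcnj1 (chr9:32372418-32399197, probe set 1418613_at) was above the median in 7 arrays. It reached 11.98 in S-shaped body replicate 3, against 5.68, 6.95 and 5.82 in the other S-shaped arrays and 5.45 to 6.42 in the renal vesicle. Corpuscle replicate 3 stood at 12.44 with the other corpuscle arrays at 5.97 to 6.83, and interstitium replicate 3 at 11.08 with the others at 6.36 to 8.19. The collecting duct had 9.13, 5.64 and 8.35, the tip 8.57, 5.49 and 6.05, and the proximal tubule 5.84 and 5.78. The gene was thus above the median in 2 of 3 collecting duct arrays, in 2 of 4 interstitial arrays and in 1 array each of the S-shaped body, the corpuscle and the tip, and both proximal tubule arrays were low. The S-shaped body differed from the renal vesicle by 1.57 (SE 1.04, adjusted p = 0.442), and by 0.11 without replicate 3. The other probe set, 1418614_at, exceeded the median in 2 arrays. Bsnd (chr4:106483456-106492243, probe set 1421482_at) was above the median in 5 arrays, the fewest of the 7 tested genes. These were S-shaped replicate 3 at 9.04, tip replicate 1 at 8.66, interstitium replicate 3 at 8.62, and bud replicates 1 and 4 at 8.50 and 8.46. All other arrays lay at or below 7.25, so Bsnd was read in a few arrays of unlike components. Its difference between the S-shaped body and the renal vesicle was 0.66 (SE 0.62, adjusted p = 0.619) and turned to -0.13 without S-shaped replicate 3.

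**Figure D1:**
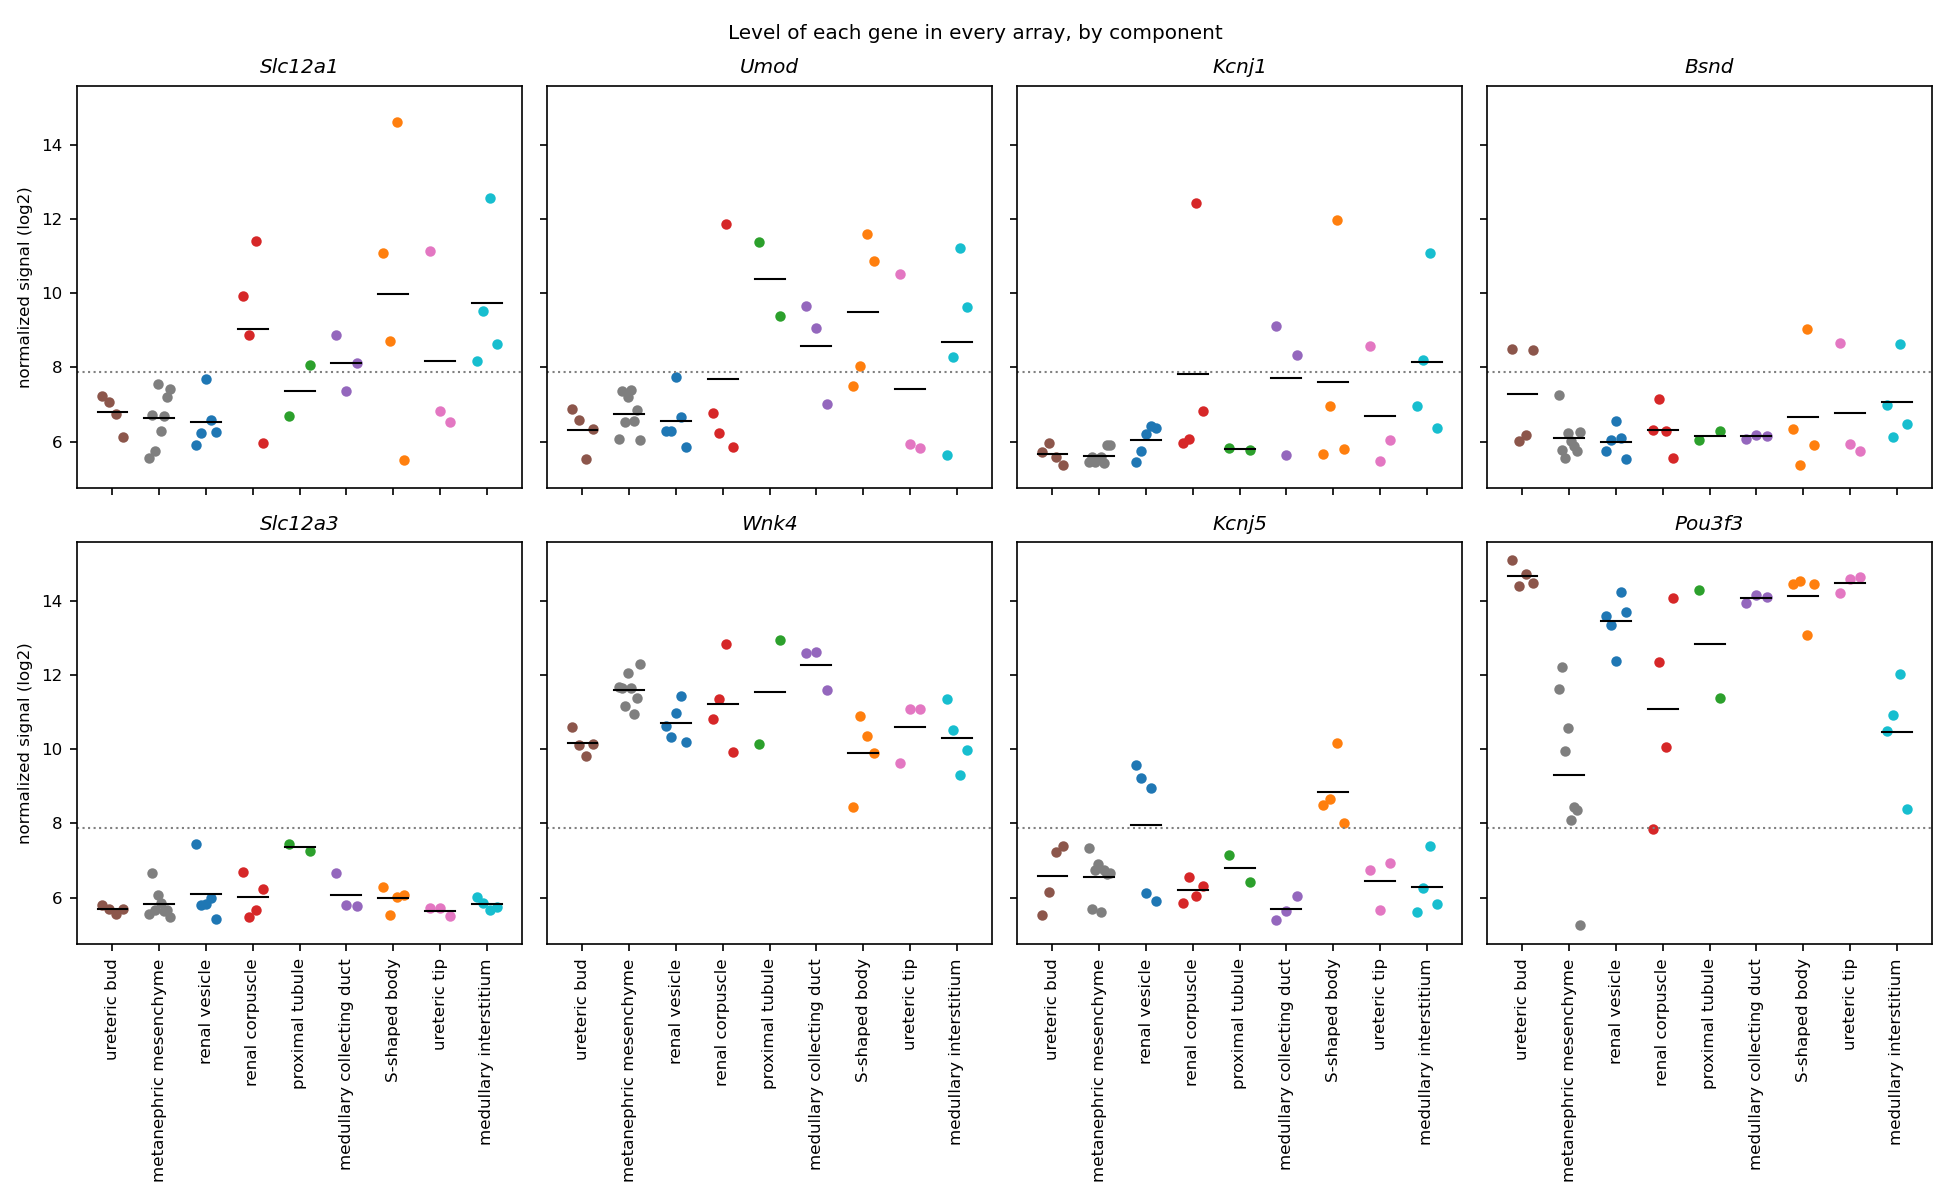
Log2 normalized signal (y axis) of the 8 genes in all 37 arrays, by component (x axis, E11.5, then E12.5, then E15.5). Points are arrays, black lines are component means, and the dotted line is the median over all arrays, 7.89. Slc12a3 is drawn from the unfiltered probe set 1422856_at. Slc12a1, Umod and Kcnj1 are below the line in all arrays of the bud, mesenchyme and vesicle.

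Several arrays held high readings of more than 1 of these genes. S-shaped replicate 3 and interstitium replicate 3 were among the 5 highest E15.5 arrays for each of Slc12a1, Kcnj1, Umod and Bsnd. Corpuscle replicate 3 was among them for Slc12a1, Kcnj1 and Umod, and tip replicate 1 for Slc12a1, Kcnj1 and Bsnd. Over the 20 arrays of E15.5, Slc12a1 and Kcnj1 gave Pearson's r = 0.74 (permutation p = 0.00032, adjusted 0.00096 over 6 pairs) and Spearman's rho = 0.61 (permutation p = 0.00464, adjusted 0.0139). Without the 2 arrays farthest from the Slc12a1 median, S-shaped replicate 3 and interstitium replicate 3, r was 0.54 over 18 arrays (permutation p = 0.0162). Slc12a1 and Umod gave r = 0.44 (permutation p = 0.0483, adjusted 0.0579) and rho = 0.40 (permutation p = 0.078, adjusted 0.137), and r fell to 0.22 without the same 2 arrays, so that relation rested on them. Kcnj1 and Umod gave r = 0.56 (permutation p = 0.00914, adjusted 0.0155) and rho = 0.39 (permutation p = 0.091, adjusted 0.137). Their r was 0.33 without the 2 arrays farthest from the Kcnj1 median, corpuscle replicate 3 and S-shaped replicate 3. Slc12a1 and Bsnd gave the highest values of the 6 pairs, r = 0.77 (permutation p = 0.00011, adjusted 0.00066) and rho = 0.74 (permutation p = 0.00035, adjusted 0.0021). Without S-shaped replicate 3 and interstitium replicate 3 their r was 0.53 over 18 arrays. In both Bsnd and Kcnj1, 3 arrays lay well above the rest. Kcnj1 and Bsnd gave r = 0.57 (permutation p = 0.0103, adjusted 0.0155) and rho = 0.35 (permutation p = 0.125, adjusted 0.15). Without corpuscle replicate 3 and S-shaped replicate 3 their r was 0.58 over 18 arrays (permutation p = 0.0182). Umod and Bsnd gave r = 0.42 (permutation p = 0.0631, adjusted 0.0631) and rho = 0.28 (permutation p = 0.226, adjusted 0.226). Without corpuscle replicate 3 and interstitium replicate 1 their r was 0.54 over 18 arrays (permutation p = 0.0197). In each pair the arrays left out were the farthest in the first gene named. Tip replicate 1 and interstitium replicate 3, both high in Bsnd, therefore stayed in for Kcnj1 and for Umod, so dependence on them was not tested there. These p-values take no account of component. Taken as deviations from the component means, a calculation added after the values were seen and given with no test, r was 0.75 for Slc12a1 and Kcnj1, 0.79 for Slc12a1 and Bsnd, 0.53 for Slc12a1 and Umod, 0.71 for Kcnj1 and Umod, 0.60 for Kcnj1 and Bsnd, and 0.52 for Umod and Bsnd. S-shaped replicate 3, corpuscle replicate 3 and tip replicate 1 had higher proximal marker means than the other arrays of their component. The proximal marker mean was 11.84 in S-shaped replicate 3, against 8.49 to 8.98 in the other S-shaped arrays. It was 9.68 in corpuscle replicate 3, against 8.05 to 8.58 in the other corpuscle arrays, and 8.56 in tip replicate 1, against 7.18 and 7.42 in the other tip arrays. In interstitium replicate 3 it was 8.08, within the 7.75 to 8.98 of the other interstitial arrays. The part of these markers in the result was not tested. In such pools of captured tissue, fewer cells of a type and less RNA per cell cannot be told apart.

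**Figure D2:**
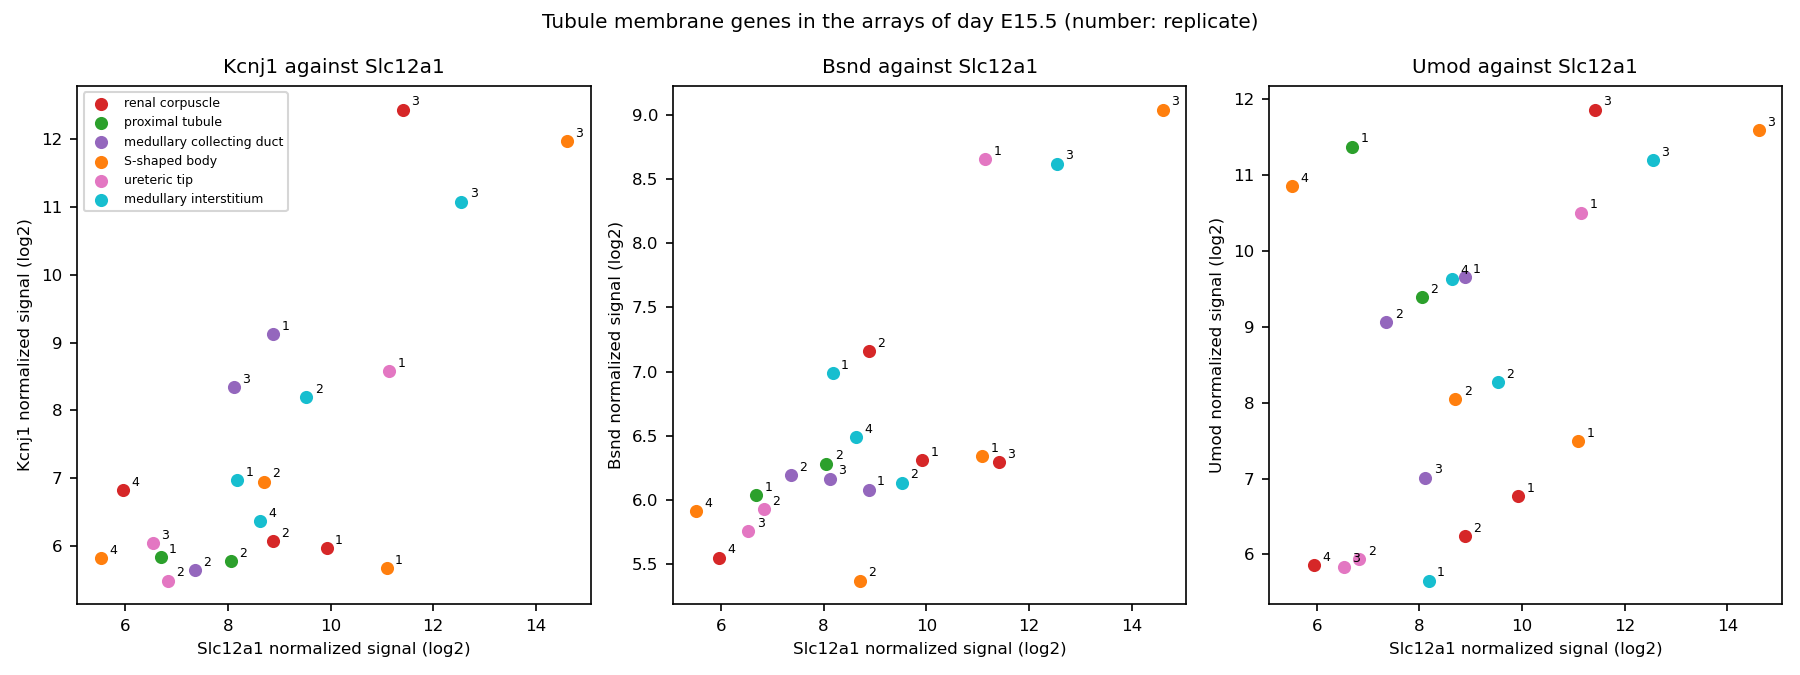
Log2 normalized signal of Kcnj1, Bsnd and Umod (y axes) against Slc12a1 (x axes) in the 20 arrays of E15.5. Each point is an array, coloured by component and numbered by replicate. The replicate 3 arrays of the corpuscle, the S-shaped body and the interstitium have the 3 highest levels of Slc12a1 and Kcnj1, and Umod is also high in proximal tubule replicate 1 (11.38) and S-shaped replicate 4 (10.86), where Slc12a1 is low.

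Promoter sequences of the 250 bases before the annotated start were read from RefSeq (GRCm38.p6) for 7 of the 8 genes and searched on both strands for 4 motifs. The motifs were GTTAAT, a core known from promoters of tubule epithelial genes, found in 6.43% of 32851 promoters of that length, and the octamer ATGCAAAT bound by POU factors, in 1.6%. The others were GTGGGAA, the core bound by the Notch effector CSL, in 5.42%, and the TATA box TATAAA, in 12.4%. The motifs do not overlap one another in these genes. The bases outside the annotated gene are given for Slc12a1 and Umod, which were read above the median at E15.5 only, and for Kcnj5, the gene called in the S-shaped body. Capitals mark motif matches. The Slc12a1 window (chr2:125152350-125152509, plus strand) holds the CSL core on the opposite strand, the Umod window (chr7:119479263-119479512, minus strand) holds GTTAAT, and no match is in the Kcnj5 window (chr9:32344381-32344594, minus strand). Of the other genes, Slc12a3 had a TATA box, and Pou3f3 and Wnk4 had no match to these letters. The Kcnj1 window (chr9:32393735-32393984, plus strand) had no match either, but it lies inside the annotated gene. The bases before the outer end of Kcnj1 were therefore not searched.
Slc12a1: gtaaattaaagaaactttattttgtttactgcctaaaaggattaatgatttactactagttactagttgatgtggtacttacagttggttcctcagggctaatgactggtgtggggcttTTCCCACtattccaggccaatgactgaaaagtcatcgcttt
Umod: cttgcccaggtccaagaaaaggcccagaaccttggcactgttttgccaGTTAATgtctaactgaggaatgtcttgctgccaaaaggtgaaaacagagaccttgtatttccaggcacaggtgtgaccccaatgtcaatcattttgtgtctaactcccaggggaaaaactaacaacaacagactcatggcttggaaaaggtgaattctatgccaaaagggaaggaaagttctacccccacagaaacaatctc
Kcnj5: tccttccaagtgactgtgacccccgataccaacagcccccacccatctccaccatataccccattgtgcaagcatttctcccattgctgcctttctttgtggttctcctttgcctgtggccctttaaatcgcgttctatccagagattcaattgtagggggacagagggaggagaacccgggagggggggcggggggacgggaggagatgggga

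Slc12a3, the marker of the distal convoluted tubule (chr8:94329109-94366222), was low throughout. Probe set 1422856_at was above the median in 0 of 37 arrays and 1446552_at in 1. For 1422856_at the proximal tubule arrays read 7.26 to 7.45 and the S-shaped arrays 5.55 to 6.29, while the highest array was 1 of the renal vesicle at 7.46. With the filter on low signal dropped, the gene differed between these components by 1.37 (SE 0.40, adjusted p = 0.0265), which was called at levels that stay below the median of all probe sets. In all other comparisons without the filter its change was at most 0.43 in size. Slc12a3 therefore gave no reading above the median in the S-shaped body.

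Wnk4 (chr11:101260537-101277409, probe set 1427196_at) was above the median in all 37 arrays, those of E11.5 included. Its log2 level was 12.58, 12.62 and 11.60 in the medullary collecting duct, against 8.44, 10.88, 10.34 and 9.89 in the S-shaped body. The collecting duct had the highest component mean and the S-shaped body the lowest, and their arrays did not overlap. Wnk4 rose by 2.38 (SE 0.61, adjusted p = 0.0261 by limma) in the collecting duct, where Kcnj5 was also called, so 2 of 7 genes were called against 2.47% of all genes. The Wnk4 call was lost without collecting duct replicate 1 (adjusted p = 0.0851) or 2 (0.186) and without S-shaped replicate 1 (0.123) or 4 (0.053). In the single title date that holds both components, the collecting duct array read 12.62 and the S-shaped array, replicate 2, read 10.88. The difference was 1.59 (adjusted p = 1) with title date as a fixed term. Collecting duct arrays also stood above the tip, at 9.62, 11.08 and 11.08, with a difference of 1.67 (SE 0.65, adjusted p = 0.557) that was not called. In that comparison 0.356% of all genes and 0 of 7 were called by limma, and Wnk4 was the 1 gene with an unadjusted p under 0.05 (0.0148). At E11.5 Wnk4 lay at 9.83 to 10.61 in the bud and 10.94 to 12.30 in the mesenchyme, again without overlap, with a difference of -1.43 (SE 0.49, adjusted p = 0.0652). In the corpuscle its levels were 10.80, 11.34, 12.84 and 9.92 and in the proximal tubule 10.15 and 12.95, where the differences from the S-shaped body of 1.34 and 1.66 were not called (adjusted p = 0.285 and 0.123). Without proximal tubule replicate 1, Wnk4 was called in the proximal tubule against the S-shaped body and in the S-shaped body against the other E15.5 components. The proximal tubule is then replicate 2 alone, at 12.95, which had the higher nephron progenitor markers.

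Few of the kinases and ligases around Wnk4 were called. Of 10 measured genes of the WNK-SPAK route, 2 rose and 0 fell in the S-shaped body relative to the renal vesicle, where 4.99% of all genes were called. They were Sgk1, the aldosterone-induced kinase, by 2.46 (adjusted p = 0.0478), and Nedd4l, the ubiquitin ligase of the epithelial sodium channel, by 1.85 (adjusted p = 0.0187). Neither held with S-shaped replicate 3 and corpuscle replicate 4 left out, when 0 of 10 were called, nor with the Actb control ratio (5′ over 3′ probes, a measure of RNA integrity) as a covariate, when again 0 of 10 were called. The largest change among those not called was Cab39, a scaffold of the SPAK kinase, at 0.93 (adjusted p = 0.0954). The median over the 10 genes was -0.01, beside -0.04 over all genes. In the collecting duct against the S-shaped body 0 of 10 were called by limma, with Nedd4l at 1.16 (adjusted p = 0.344) the largest.

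Of the 7 tested genes, Kcnj5 was the 1 called in the S-shaped body against the rest of the E15.5 kidney. Kcnj5 (chr9:32314706-32344380, probe set 1441590_at) had log2 levels of 8.50, 8.66, 10.17 and 8.02 in the S-shaped body, and in the other E15.5 components at most 7.40. In the corpuscle it read 5.87, 6.55, 6.04 and 6.33, in the collecting duct 5.41, 5.64 and 6.05, and in the proximal tubule 7.15 and 6.43. The tip arrays lay at 6.74, 5.68 and 6.94 and the interstitial arrays at 5.63, 6.26, 7.40 and 5.84, so every S-shaped array was above every other E15.5 array. Against the mean of the other 5 components it rose by 2.55 (SE 0.50, adjusted p = 0.00409, a 5.87-fold difference), the 1 gene called of 7, beside 1.46% of all genes. Kcnj5 was above the median in all 4 S-shaped arrays, in 3 vesicle arrays and in 0 arrays of any other component. It therefore passed the filter on low signal only through components where it was high. This call and those pair by pair below are thus no independent support for the pattern. Without S-shaped replicate 3 and corpuscle replicate 4 the rise was 2.12 (adjusted p = 0.0255). In the 1 title date that the S-shaped body shares with other components, its array, replicate 2, read 8.66. The other components read 6.43 in the proximal tubule, 5.64 in the collecting duct, 6.94 in the tip and 5.63 in the interstitium. S-shaped replicates 1, 3 and 4 share a title date of their own and cannot be compared within a date. With title date as a fixed term the difference was again 2.55, and the call was lost (adjusted p = 1).

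Pair by pair, Kcnj5 fell by 3.14 in the collecting duct relative to the S-shaped body (SE 0.68, adjusted p = 0.00566), and by 2.69 without the libraries that stood apart (adjusted p = 0.0243). With title date as a fixed term this difference was -2.84 (adjusted p = 0.873). It fell by 2.64 in the corpuscle (SE 0.63, adjusted p = 0.0388), the 1 gene called of 7 beside 0.579% of all genes. That call was lost without corpuscle replicate 1 or 3 and without any of the 4 S-shaped replicates (adjusted p 0.0553 to 0.0975). It was also lost without the libraries that stood apart (-2.24, adjusted p = 0.0651), and held in 5 of 14 other settings. In the proximal tubule, with 2 arrays, the difference was -2.05 (SE 0.77, adjusted p = 0.0841) without overlap, and 0 of 7 genes were called by limma beside 9.91% of all genes (Kcnj5 and Wnk4 had unadjusted p-values of 0.0115 and 0.0218). The rise against the renal vesicle was not resolved. Vesicle replicates 1, 2 and 4 read 9.57, 9.24 and 8.94, at the level of the S-shaped body, whereas replicates 3 and 5 read 6.12 and 5.92, at the level of the mesenchyme (5.62 to 7.35). The S-shaped body differed from the vesicle by 0.88 (SE 0.60, adjusted p = 0.449), and the vesicle from the mesenchyme by 1.41 (SE 0.51, adjusted p = 0.057). Without vesicle replicate 3, without vesicle replicate 5 or without mesenchyme replicate 1, Kcnj5 was called higher in the vesicle. The second probe set, 1421762_at, was above the median in 0 arrays and reached at most 7.74, so the pattern rests on 1441590_at.

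**Figure D3:**
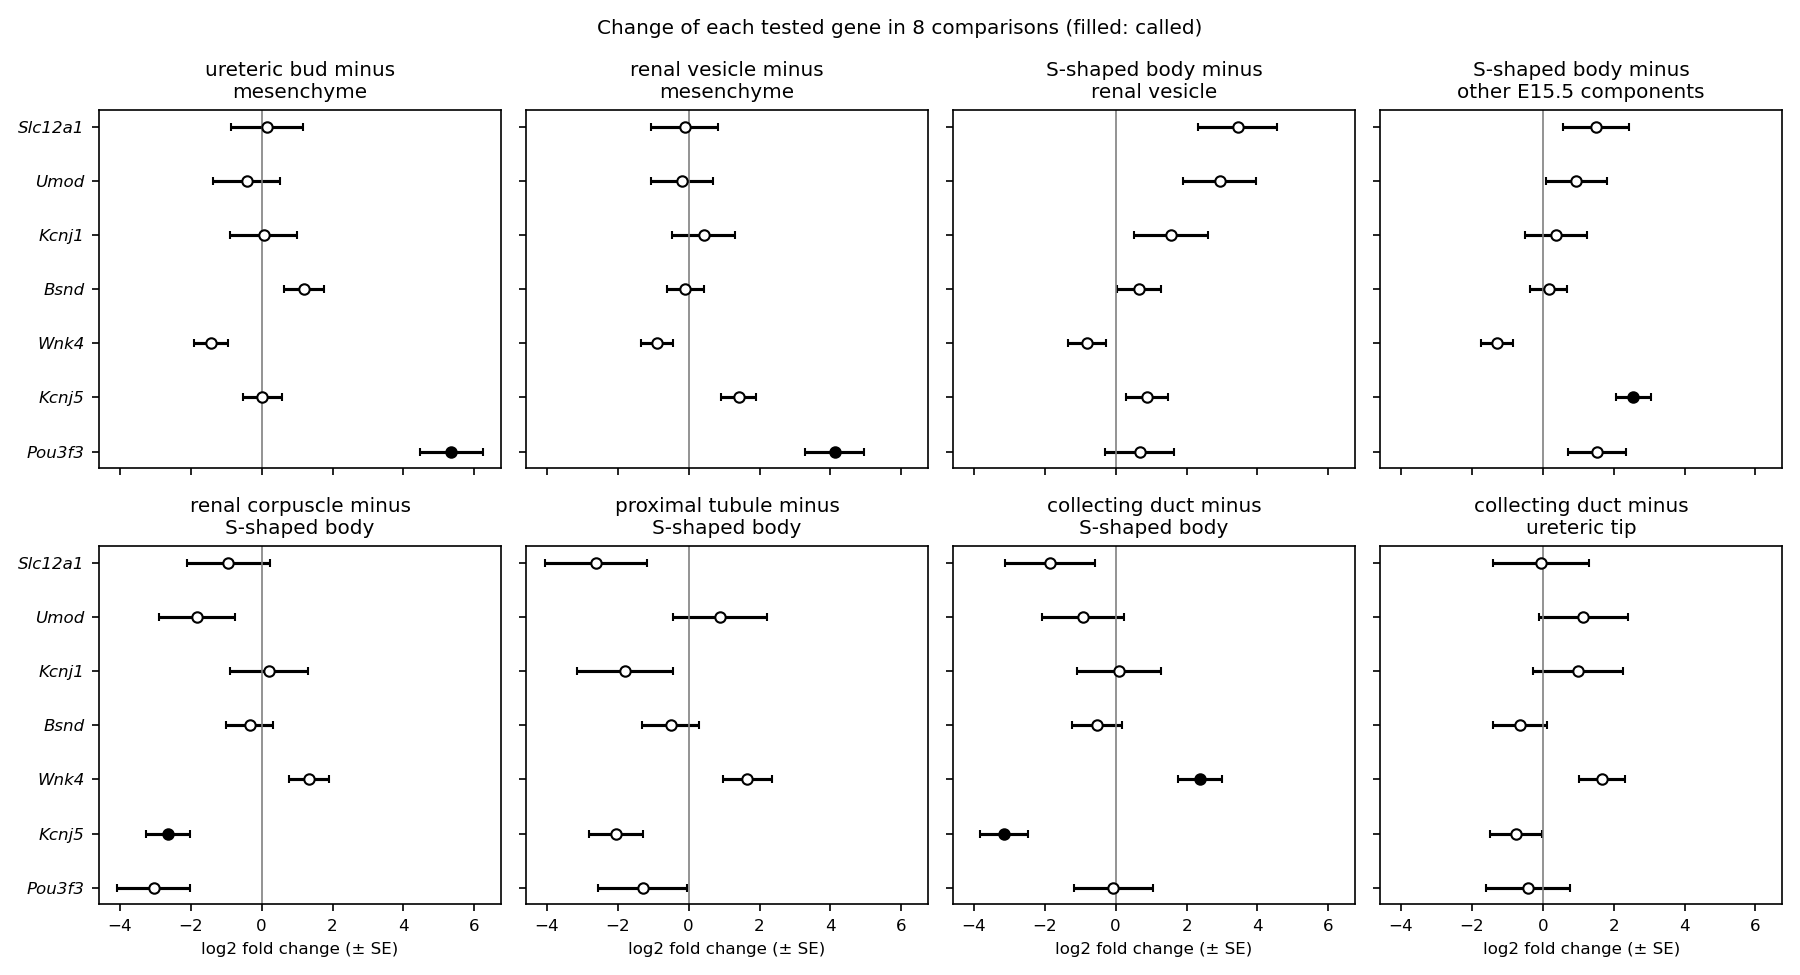
Log2 fold change (x axes, bars are SE) of the 7 tested genes in 8 comparisons, each as the first named component minus the second. Filled points are called (adjusted p under 0.05 and at least 1 in size). Pou3f3 is filled in both comparisons with the mesenchyme, Kcnj5 in 3 that involve the S-shaped body, and Wnk4 in the collecting duct against the S-shaped body.

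Pou3f3 was strongly read from the first stage on, and was lowest in the mesenchyme. Pou3f3 (chr1:42695768-42700210, probe set 1435197_at) had log2 levels of 15.08, 14.38, 14.71 and 14.47 in the ureteric bud, against a range of 5.25 to 12.20 with a median of 9.21 in the 8 mesenchyme arrays. The bud arrays were all above the mesenchyme arrays and varied little. Pou3f3 rose by 5.34 in the bud (SE 0.89, adjusted p = 5.13e-05), the 1 gene called of 7 beside 8.15% of all genes. In the renal vesicle it read 13.58, 13.34, 12.38, 14.22 and 13.68, again above every mesenchyme array. It rose there by 4.12 (SE 0.83, adjusted p = 0.000825), the 1 gene called of 7 beside 11.9% of all genes. The mesenchyme arrays differed by how the titles name their collection. Replicates 1 to 4, of which 3 are titled laser capture, read 11.61, 12.20, 9.96 and 10.58, and replicates 5 to 8, titled dissection or collagenase, read 8.09, 8.45, 8.37 and 5.25. The ureteric marker mean was 8.74 to 9.86 in the first 4 arrays and 7.85 to 8.16 in the last 4, beside 11.46 to 12.03 in the bud, and its part in the Pou3f3 levels was not tested. With the mesenchyme arrays titled laser capture alone, the vesicle difference was 2.72 (adjusted p = 0.08) and the bud difference 3.94 (adjusted p = 0.00595). With those titled dissection or collagenase alone, the differences were 5.90 and 7.12. In the single date shared by bud and mesenchyme, the bud array read 14.71 and the mesenchyme array 8.45, and with title date as a fixed term the bud difference was 6.26 (adjusted p = 0.105).

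**Figure D4:**
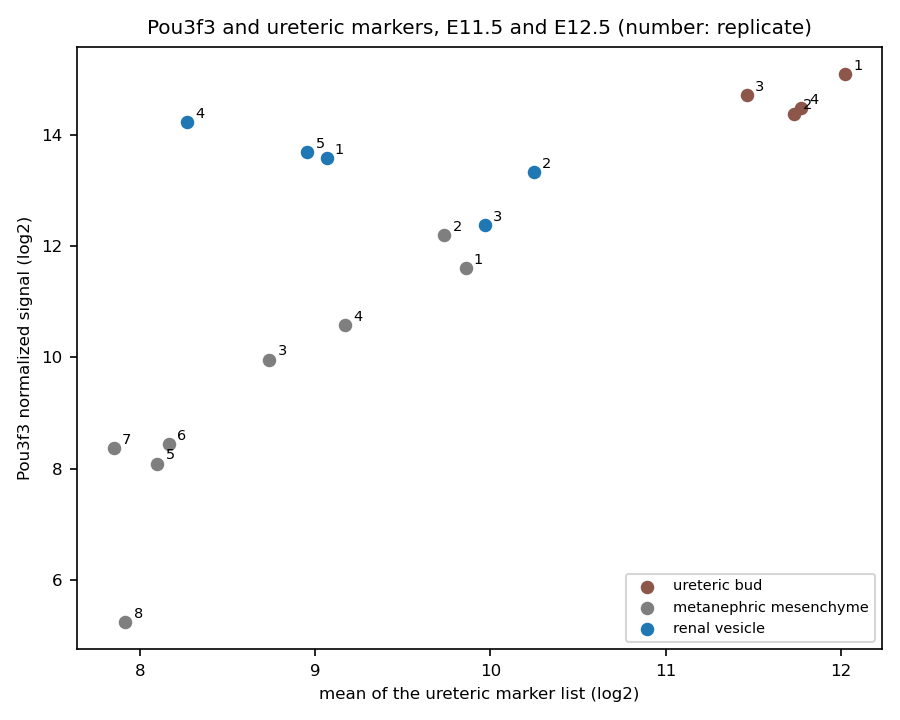
Pou3f3 log2 normalized signal (y axis) against the mean of 9 ureteric markers (x axis) in the arrays of the ureteric bud, the mesenchyme and the renal vesicle, numbered by replicate. Mesenchyme replicates 1 to 4 are higher on both axes than replicates 5 to 8, and the vesicle arrays have high Pou3f3 (12.38 to 14.22) at low to middling marker means.

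At E15.5 Pou3f3 was high in the collecting duct and the tip, which derive from the bud, and in the S-shaped body. The corpuscle read 7.84, 12.36, 10.07 and 14.06, and the proximal tubule 14.27 and 11.38. The collecting duct read 13.92, 14.15 and 14.10, the tip 14.21, 14.59 and 14.64, and the interstitium 10.48, 10.91, 12.02 and 8.38. The S-shaped arrays read 14.45, 14.51, 13.08 and 14.44, so the S-shaped body, the collecting duct and the tip were all high and close together, while the corpuscle arrays were spread widely. The corpuscle differed from the S-shaped body by -3.04 (SE 1.03, adjusted p = 0.156), which was not called. The highest corpuscle array is replicate 4, the library with low podocyte markers. Without it the difference was -4.03 (adjusted p = 0.0349), and without both libraries that stood apart it was -4.38 (adjusted p = 0.0181), so that Pou3f3 then fell. Without corpuscle replicate 2, at 12.36, it was -3.47 (adjusted p = 0.0878), and without corpuscle replicate 1, at 7.84, it was -1.96 (adjusted p = 0.401). The S-shaped body and the renal vesicle differed by 0.68 (SE 0.97, adjusted p = 0.764). Of the other probe sets, 1422331_at was above the median in 2 arrays and did not follow this course. The probe set 1429857_at, assigned to Pou3f3 and its neighbour 2900092D14Rik together and not tested, read 10.49 to 10.95 in the tip, 9.13 to 10.68 in the collecting duct and 6.91 to 7.80 in the ureteric bud, so its bud arrays were below the median where 1435197_at was highest.

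The remaining differences of the 7 genes were not called. In the bud against the mesenchyme, Bsnd differed by 1.20 (SE 0.57, adjusted p = 0.268 by limma, unadjusted 0.0427), with bud replicates 1 and 4 high and replicates 2 and 3 low, while Slc12a1 (0.15), Umod (-0.42), Kcnj1 (0.06) and Kcnj5 (0.02) differed by less than their SE. In the vesicle against the mesenchyme Wnk4 differed by -0.89 (adjusted p = 0.195), and Slc12a1 (-0.11), Umod (-0.18), Kcnj1 (0.43) and Bsnd (-0.09) by less than their SE. Wnk4 differed by -0.82 (adjusted p = 0.428) in the S-shaped body against the vesicle. Against the other E15.5 components the S-shaped body was not called in Slc12a1 (adjusted p = 0.537), and it differed by 0.95 in Umod, 0.37 in Kcnj1, 0.17 in Bsnd, 1.54 in Pou3f3 and -1.30 in Wnk4 (adjusted p at least 0.169). In the corpuscle against the S-shaped body the differences were -0.94 in Slc12a1, -1.82 in Umod, 0.22 in Kcnj1 and -0.34 in Bsnd. In the proximal tubule they were 0.88 in Umod, -1.80 in Kcnj1, -0.51 in Bsnd and -1.29 in Pou3f3. In the collecting duct they were -1.86 in Slc12a1, -0.92 in Umod, 0.10 in Kcnj1, -0.52 in Bsnd and -0.06 in Pou3f3. Of the 4 thick limb genes, Slc12a1 had the most negative difference in both the proximal tubule and the collecting duct, with an SE of 1.44 and 1.27. In the collecting duct against the tip the differences were -0.05 in Slc12a1, 1.15 in Umod, 1.00 in Kcnj1, -0.63 in Bsnd, -0.43 in Pou3f3 and -0.75 in Kcnj5.

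Several genes of a chosen list of distal nephron regulators rose in the S-shaped body (E15.5) relative to the renal vesicle (E12.5). Component and day cannot be told apart there, and a role of these genes in distal fate was not tested. In that comparison 0 of the 7 genes described so far were called by limma, although Slc12a1 and Umod had unadjusted p-values under 0.05 (0.00398 and 0.00701). Their differences, 3.44 and 2.93, were larger than those of several regulators that passed, and whether regulators and transporters differ was not tested. Of 20 measured genes in a list of distal nephron regulators, 9 rose and 0 fell, where 4.99% of all genes were called, with a median of 1.79 over the list beside -0.04 over all genes. Like the other lists, it was chosen with earlier results of these data known, so the count is a description only. The shares of all genes given beside list counts are those with all arrays and settings as reported. Dach1, a transcriptional cofactor, averaged 13.56 ± 0.15 in the S-shaped body and 8.71 ± 0.85 in the renal vesicle (SD, n = 4 and n = 5), and rose by 4.85 (SE 0.58, adjusted p = 1.01e-06). Irx2, an Iroquois homeobox gene, averaged 11.22 ± 0.22 in the S-shaped body and 7.55 ± 0.76 in the renal vesicle, and rose by 3.67 (SE 0.63, adjusted p = 0.000359). Esrrg, the estrogen-related receptor gamma, rose by 3.50 (adjusted p = 0.00284). In each of these genes the S-shaped arrays lay above all vesicle arrays. Sim2, Tfap2b, Emx1, Irx1, Sim1 and Mecom also rose, by 1.39 to 3.43. Lhx1, a homeobox gene of the early nephron, went the other way by -2.25 (adjusted p = 0.295). The count was 9 without the libraries that stood apart. It was 6 with the Actb control ratio as a covariate: the 5′ over 3′ probe ratio of Actb, a measure of RNA integrity, averaged -2.55 on the log2 scale in the S-shaped body and -4.08 in the renal vesicle. Its part in the rises was not tested beyond that fit.

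**Figure D5:**
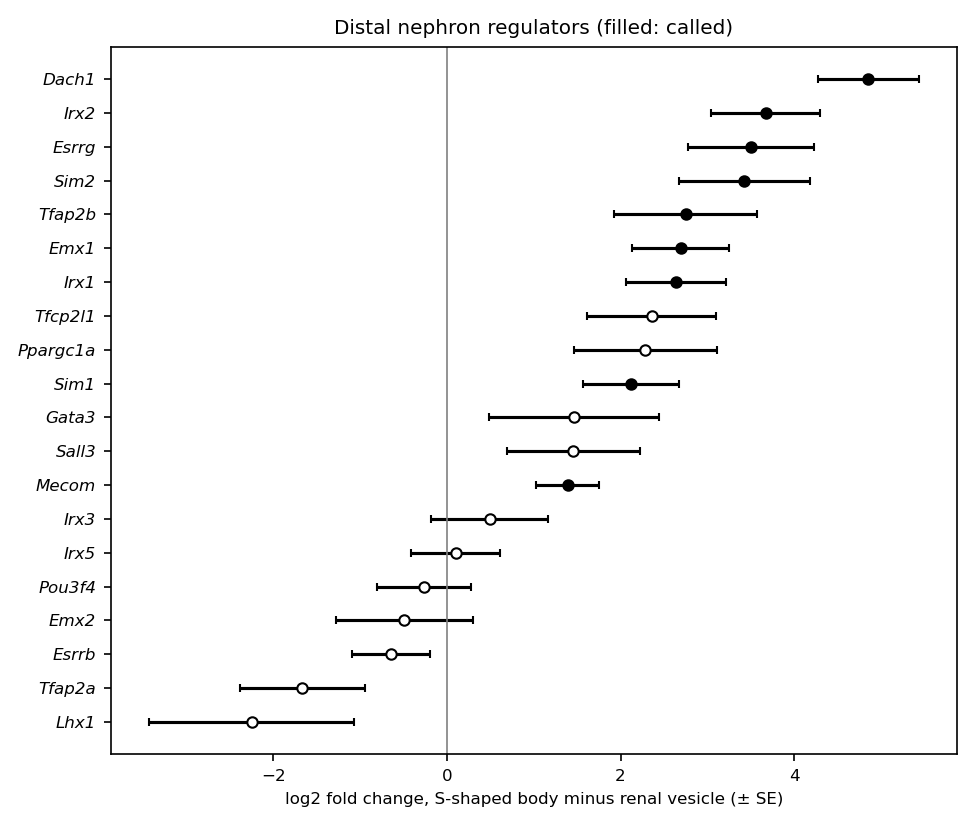
Log2 fold change of the 20 measured distal nephron regulators, S-shaped body minus renal vesicle (x axis, bars are SE), sorted by size. Filled points, from Mecom at 1.39 to Dach1 at 4.85, are called, and no gene left of 0 is called.

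Within E15.5 the same list had 4 genes higher in the S-shaped body than in the mean of the other components and 0 lower, beside 1.46% of all genes called in either direction, with a median of 1.20. Irx2 rose by 3.07 (adjusted p = 0.00143), Tfap2b, an AP-2 factor, by 3.02 (adjusted p = 0.0159), and Sim2, a bHLH-PAS factor, by 3.02 (adjusted p = 0.00807). Lhx1, at 2.10 (adjusted p = 0.36), was the largest not called. The count was 8 without the libraries that stood apart and 3 with the Actb ratio as a covariate. The matching shares of all genes are not given. Over the settings, 0 to 444 of all genes were called in this comparison (229 as reported). In the same comparison other distal lists had genes that fell. The mean compared with includes the ureteric tip and the collecting duct. Calb1, also in the ureteric marker list, read 15.65 to 16.38 in the tip and 7.77 to 9.10 in the S-shaped body. The part of the tip and the collecting duct in these falls was not tested. Of 11 distal convoluted and divalent ion genes 2 fell and 0 rose, with Calb1 at -4.35 and Slc8a1 at -3.66, and Tmem52b at 1.41 (adjusted p = 0.541) was not called. Without the libraries that stood apart 1 fell and 1 rose. Of 8 mineralocorticoid and connecting genes 2 fell and 0 rose, with the sodium channel subunits Scnn1b at -2.51 and Scnn1g at -2.50, and Nr3c2, the mineralocorticoid receptor, at -1.26 (adjusted p = 0.382) was not called.

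Set against the S-shaped body one component at a time, few of the regulators were called. In the corpuscle 2 of 20 fell, beside 0.579% of all genes, with Tfcp2l1 at -3.55 and Irx2 at -3.23, and Tfap2b at -3.19 (adjusted p = 0.077) was not called. The count was 10 without the libraries that stood apart. The matching share of all genes is not given. Over the settings, 0 to 646 of all genes were called in this comparison (91 as reported). In the proximal tubule 3 fell, beside 9.91% of all genes, with Dach1 at -5.87, Tfap2b at -4.75 and Sim1 at -3.24, and Lhx1 at -3.07 (adjusted p = 0.205) was not called. That count was 6 without those libraries and 3 with the Actb ratio as a covariate, which averaged -4.01 in the proximal tubule and -2.55 in the S-shaped body. Over the settings, 73 to 1958 of all genes were called in this comparison (1557 as reported). In the collecting duct 3 fell and 1 rose, beside 2.47% of all genes. Gata3, a zinc finger factor of the ureteric lineage, rose by 4.42, while Sim2 was at -3.95 and Irx2 at -3.15, and Tfap2a at 2.73 (adjusted p = 0.0661) was not called. With the Actb ratio as a covariate 2 fell and 0 rose there. In the ureteric bud against the mesenchyme 10 of 20 rose, beside 8.15% of all genes, led by Lhx1 at 4.98, Emx2 at 4.60 and Tfcp2l1 at 4.52, so this list also holds genes of the bud. Irx3 at 1.81 (adjusted p = 0.0619) was not called there, and Sim2 at -0.85 was the largest in the other direction.

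The partners of the transporters did not move together. Of 11 measured thick limb partners, 2 rose in the S-shaped body relative to the renal vesicle, beside 4.99% of all genes. They were Fxyd2, the gamma subunit of the sodium pump, by 3.14 (adjusted p = 0.00178), and Atp1b1, its beta subunit, by 2.25 (adjusted p = 0.000498). The largest not called was Slc9a3, a sodium-proton exchanger, at 1.88 (adjusted p = 0.0571). In the proximal tubule against the S-shaped body 3 of 11 rose, beside 9.91% of all genes, Fxyd2 by 4.64, the potassium channel Kcnj16 by 4.21 and the claudin Cldn10 by 3.73, while Slc9a3 at 2.02 (adjusted p = 0.0878) was not called. Of 11 distal convoluted and divalent ion genes, Tmem52b rose by 4.07 (adjusted p = 0.0205) in the S-shaped body relative to the vesicle, with the groups overlapping, while the calcium binding protein gene Calb1 differed by -3.40 (adjusted p = 0.141). In the collecting duct against the S-shaped body Slc8a1, a sodium-calcium exchanger, rose, with means of 13.55 ± 0.69 in the collecting duct and 7.54 ± 1.75 in the S-shaped body (SD, n = 3 and n = 4, adjusted p = 0.000561 by limma), and Calb1 at 4.01 (adjusted p = 0.201) was not called. Of 8 mineralocorticoid and connecting genes, 3 rose in the collecting duct against the S-shaped body, beside 2.47% of all genes, and 0 changed between the S-shaped body and the vesicle (by limma, with Scnn1b at -1.61 and adjusted p = 0.0632). The 3 were Scnn1g, by 6.43, Scnn1b, by 5.13, and the vasopressin receptor Avpr2, by 3.07, and Nr3c2 at 2.43 (adjusted p = 0.13) was the largest not called.

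The genes whose levels ran most like each of these over all 37 arrays were named by Pearson correlation, as a description across arrays that also differ by component and day. Slc12a1 was closest to Kcnj1 (r = 0.80), then Gpr182 (0.74) and Igkv6-20 (0.71). For Kcnj1, Slc12a1 was followed by Leprot (0.67) and Matr3 (0.66). Umod was closest to Erlec1 (0.71), Auh (0.69) and Tmigd1 (0.68), and Bsnd to Rapgef5 (0.59), Slc12a1 (0.55) and Ddo (0.53). Pou3f3 had the closest neighbours of all 7 genes, with Rab3ip at 0.90, Sgpp2 at 0.89 and the epithelial cadherin Cdh1 at 0.88. Wnk4 was closest to Chd3 (0.74), Pcnx3 (0.69) and Mroh1 (0.66). Kcnj5 was closest to Osr2 (0.65), Pcgf5 (0.56) and Lrtm2 (0.56).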

How the data were processed

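The deposited values are signal intensity per probe set on 37 Affymetrix arrays, computed by the authors with GCOS, per the submitters' processing notes (version not given in the sources used here). Trimming 2% at each end left a mean of 1500 on each array, so the values are linear and globally scaled, and detection calls were not used here. For this work an offset of 34.62 (the 20th percentile) was added, log2 was taken of the deposited signal and arrays were quantile normalized. The offset understates fold changes of low genes. Probe sets above the pooled median of 7.89 in at least 2 arrays were kept, and for each gene the single-gene probe set with the highest mean, giving 15709 genes. All 37 arrays entered a single limma 3.58.1 model (R 4.3.3) with component as its factor (28 residual degrees of freedom, intensity trend). There were 8 comparisons, and p-values were adjusted by Benjamini-Hochberg over all genes. On simulated data for the S-shaped body against the renal vesicle, 96 of 100 genes changed by 4 on the log2 scale and 57 of 100 changed by 2 were called. So were 10 unchanged genes. The simulation gave each gene 1 spread in all components, whereas Slc12a1 had an SD of 3.84 in the S-shaped body and 0.68 in the vesicle. These shares may therefore not hold for such genes. The members and gene lists were chosen with earlier results of these data known. The rule for named genes took the tested genes of the set in every comparison, up to 4 genes of a list where its count is described (the 3 largest calls and the largest not called or in the other direction), and for each gene the 3 with the highest correlation. Sim2, Tfap2b, Emx1, Irx1, Sim1 and Mecom are named to complete a count. Listed genes beyond those counted as measured are not reported here. Alternatives covered the offset, normalization, filter, choice of probe set, array weights, samples fitted, title date, title number, the Actb ratio, the libraries that stood apart, the way of collection and each replicate left out.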

Additional observations from a re-analysis of the deposited data

Results flagged for a closer look

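In 4 of 42 groups examined, 1 array lay further from its nearest neighbour than Dixon's test allows for a group of its size, and chance gives such a gap in about 1 of 20 groups. Kcnj1 in renal corpuscle replicate 3, at 12.44, and Umod in the same array, at 11.86, stood above the other corpuscle arrays. Pou3f3 in S-shaped body replicate 3, at 13.08, stood below the other S-shaped arrays, in the library that also carried high podocyte and interstitial markers. Bsnd in metanephric mesenchyme replicate 1, at 7.25, stood above the other mesenchyme arrays, but below the median of all arrays.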

How the results depend on the processing

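The counts of the 7 genes called with all arrays and settings as reported were 1 for the bud and 1 for the vesicle against the mesenchyme, 0 for the S-shaped body against the vesicle, 1 for the S-shaped body against the other components, 1 for the corpuscle, 0 for the proximal tubule and 2 for the collecting duct against the S-shaped body, and 0 for the collecting duct against the tip. The corpuscle count, which rests on Kcnj5, was 0 with an offset at the 10th percentile, without quantile normalization, with the filter at 8 arrays, with array weights, with only the groups compared, with title date as a fixed or a random term, with the replicate block and with the Actb ratio. With an offset at the 40th percentile the vesicle count against the mesenchyme was 2 (with Kcnj5), the S-shaped count against the vesicle 1 (Slc12a1) and the proximal tubule count 1 (Kcnj5). Without quantile normalization the bud count was 2 and the S-shaped count against the vesicle 2 (Slc12a1 and Umod). Without the filter the proximal tubule count was 1 (Slc12a3). With the filter at 8 arrays Kcnj5 was no longer tested, the count of the S-shaped body against the other components was 0 and that of the collecting duct 1. The bud count was 3 with array weights (Bsnd, Pou3f3 and Wnk4) and 2 with only the groups compared, where the collecting duct count was 1. With title date as a fixed term, which has no vesicle comparison, the counts were 0 for the bud, 0 for the S-shaped body against the other components and 0 for the collecting duct. Leaving out both libraries that stood apart gave 2 for the bud (with Wnk4) and 2 for the vesicle (with Kcnj5) against the mesenchyme, and with mesenchyme titled LCM alone the vesicle count was 0. Leaving out 1 replicate at a time gave counts of 1 to 1 for the bud, 1 to 2 for the vesicle against the mesenchyme, 0 to 1 for the S-shaped body against the vesicle, 1 to 2 against the other components, 0 to 2 for the corpuscle, 0 to 1 for the proximal tubule, 1 to 2 for the collecting duct against the S-shaped body and 0 to 0 for the collecting duct against the tip. Bsnd between the S-shaped body and the vesicle was -0.13 without the libraries that stood apart and -0.13 to 1.09 with 1 replicate left out. The cause of these moves was not tested, apart from the smaller number of genes or arrays that a setting itself leaves. Deviations of E15.5 arrays with the same title number in different components correlated at a median of 0.01 and a lowest value of -0.22. The median was 0 for different numbers. Such medians cannot show whether some arrays share animals. With the replicate block the vesicle count against the mesenchyme was 2, the corpuscle count 0 and the collecting duct count 1 (Wnk4 lost, adjusted p = 0.0565 by limma), and no other count of the 7 genes changed. Over these settings the number of all genes called ran from 0 to 2484 for the bud (1280 as reported) and 389 to 2181 for the vesicle (1862) against the mesenchyme, 120 to 1215 for the S-shaped body against the vesicle (784) and 0 to 444 against the other components (229). It ran from 0 to 646 for the corpuscle (91), 73 to 1958 for the proximal tubule (1557) and 24 to 1190 for the collecting duct (388) against the S-shaped body, and 9 to 1014 for the collecting duct against the tip (56). The number of arrays limits precision, 2 in the proximal tubule above all, and most readings of Bsnd, Kcnj1 and Kcnj5 were near the offset, where fold changes are understated.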
